A study of Mus musculus with 8 samples.

Results

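The genes described here are 7 members of the calcium clearance system of hair cells, which turn sound into nerve signals in the cochlea. They are the EF-hand calcium buffers Calb1, Calb2 and Pvalb and the plasma membrane calcium pumps Atp2b1, Atp2b2, Atp2b3 and Atp2b4. They were taken by gene name from the 25343 genes of the deposited table, and all 7 were found, each as 1 row. Hair cells had been sorted from the cochlea by the reporter Atoh1-GFP, which both groups carry, from pups 4 to 6 days old whose strain background mixed C57BL/6 with 129. The 4 wild-type libraries (WT) and the 4 libraries of mice with a knockout of Ndp (Ndp KO), the gene of the secreted protein norrin, each came from a pool of 12 to 20 sensory epithelia. Which part of Ndp the allele lacks, the sex of the mice and how pools relate to litters are not given in the sources used here, so a p-value here reflects the spread of these pools alone, part of which may be technical.

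Calcium enters hair cells through the mechanotransduction channels of the hair bundle and through voltage-gated channels at the synapse. EF-hand proteins bind it within the cytosol and so limit how far a signal spreads, and plasma membrane calcium ATPases, the products of the Atp2b genes, export it at the cost of ATP. The pump encoded by Atp2b2 is known as the pump of the hair bundle, and its loss deafens mice. Members of both families are also used by neurons and other cells, and in bulk samples fewer cells of a type and less RNA per cell cannot be told apart.

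The deposited values are normalized counts, that is gene counts divided by 1 size factor per library. They could be turned back into whole numbers, called reads here, of which a library had 35077950 to 48329827. These may be rounded estimates, since no source used here says how reads were counted. Ndp itself lay at 90.4 to 206 normalized counts in the wild-type libraries and at 10.5 to 66.8 in those labelled knockout, without overlap. Of all genes tested, 3.04% did not overlap. Limma, adjusted over all genes tested, did not call Ndp (adjusted p = 0.895), although it is the gene knocked out. The summed level of 7 hair cell markers ran from 111934 to 205892 normalized counts over the wild-type libraries and from 156235 to 176083 over the knockout libraries. That of 8 supporting cell markers ran from 167693 to 355555 over wild-type and from 208491 to 285679 over knockout libraries, most of it from Tectb, so the sorted material held RNA of both kinds.

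Marker lists of several cell types leaned in a common direction between the genotypes, although limma called none of their genes after adjustment. Of all genes tested, 52.5% had a positive log2 difference and 5.57% an unadjusted p under 0.05 in limma. For 7 of 8 supporting cell markers the log2 difference, knockout minus wild type, was negative, with a median of -0.38 and 3 at an unadjusted p under 0.05 (Sox2, Hes5 and Hey1). Hes5, a Notch target, had 6400.4 ± 1093 and 3342 ± 1020 normalized counts (SD, n = 4). For Hes5 and Hey1 the genotypes did not overlap, against 3.04% of all genes tested. The difference was positive for 6 of 7 macrophage markers (median 1.57), which summed to 2054 to 3608 and 2973 to 4553 normalized counts. C1qb made up most of that sum, at 2043 ± 346 and 2353 ± 312 (SD, n = 4), with a log2 difference of only 0.21 ± 0.17 (SE). Other macrophage markers were low, such as Tyrobp at 43.5 ± 55.3 and 79.1 ± 50.1 (SD, n = 4). The log2 difference was positive for 6 of 7 mesenchyme and fibrocyte markers (median 0.66), which summed to 5674 to 8959 and 7169 to 16830.04. Of these, Coch had 203 ± 62.1 and 836 ± 473 normalized counts (SD, n = 4). Coch was called by DESeq2 (adjusted p = 0.0119), which called 0.136% of all genes, but not by limma (adjusted p = 0.895). For outer hair cell markers the difference was positive for 4 of 4 (median 0.77), with 2 at an unadjusted p under 0.05 in limma (Slc26a5 and Ocm). The genotypes overlapped for all 4. Slc26a5 had 9849 ± 2340 and 19269 ± 8875 normalized counts (SD, n = 4; limma adjusted p = 0.895). Of 7 hair cell markers, the difference was positive for 4 and negative for 3 (median 0.003). Of 3 inner hair cell markers 2 were positive and 1 negative (median 0.08), and of 5 glia markers 3 and 2 (median 0.30). Of 4 endothelial markers tested 3 were positive and 1 negative (median 1.07), at sums of 84.5 to 107 and 107 to 275 normalized counts. The part of these cell types in the levels of the members was not tested. Red blood cell markers summed to at most 84.0 normalized counts in any library.

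The buffers stood far above the pumps in level. Per kilobase of exon in the GENCODE M21 annotation, wild-type libraries held 37905 ± 3656 normalized counts of Calb1, 21546 ± 1389 of Calb2 and 9099.9 ± 2246 of Pvalb (SD, n = 4). On the same scale they held 1586 ± 234 of Atp2b1, 709 ± 206 of Atp2b2, 90.0 ± 43.7 of Atp2b3 and 14.4 ± 2.32 of Atp2b4 (SD, n = 4). This order held in 8 of 8 libraries, and for 6 of 6 neighbours in the order the ranges over the 8 libraries did not overlap. Among 16975 protein-coding genes ranked by mean wild-type level per kilobase, Calb1 was number 24, Calb2 number 51 and Pvalb number 147, while Atp2b1 was number 1497, Atp2b2 number 3246, Atp2b3 number 9572 and Atp2b4 number 12838. With the length of the longest basic coding transcript in place of all exons, the wild-type level of Atp2b1 was 3386 instead of 1586, since its exons span 15218 bases in all and 7130 in that transcript. The order was the same by that measure.

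**Figure D1:**
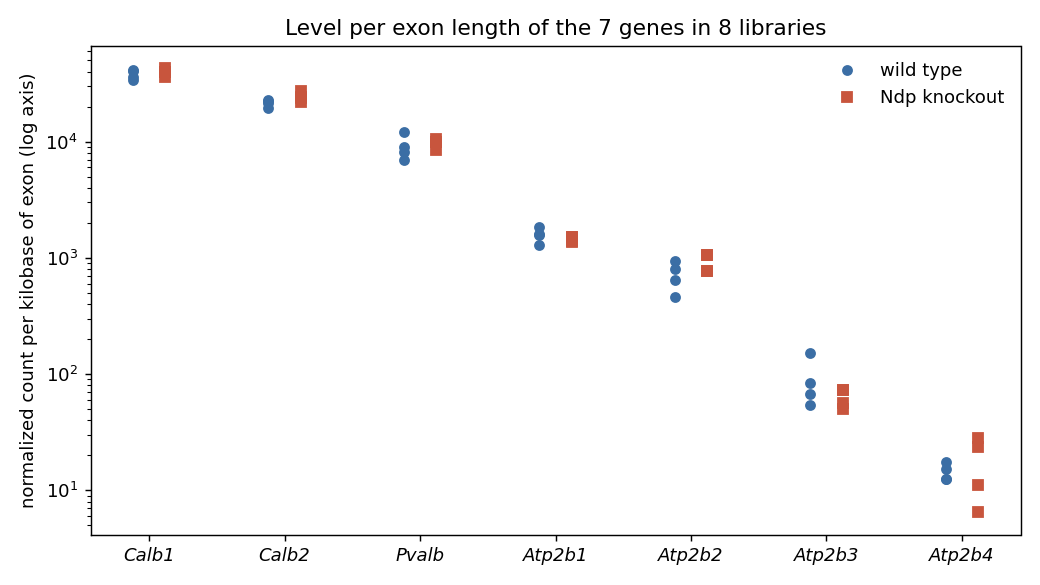
Normalized count per kilobase of exon (vertical log axis) of the 7 genes in each of 4 wild-type (blue circles) and 4 Ndp knockout libraries (red squares). Each gene forms a band that does not overlap its neighbour, from Calb1 near the top to Atp2b4 at the bottom, where the knockout points are the most scattered.

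The comparison of knockout with wild type asked which of these genes differed in RNA level without norrin. None of the 7 passed the test, which Ndp itself did not pass either. Limma on log2(normalized count + 1), adjusted over 18203 genes, called 0 of 7, with adjusted p of 0.917 to 0.998, where the background was 0.00549% of all genes tested. At an unadjusted p under 0.05 it listed 0 of 7, against 5.57% of all genes. With edgeR (quasi-likelihood test on reads) 0 of 7 were called and 0 had an unadjusted p under 0.05, with a background of 0% called and 4.55% at that unadjusted p. DESeq2 on the same reads also called 0 of 7, with 0 at an unadjusted p under 0.05, where 0.136% of all genes were called and 6.09% had such an unadjusted p. The authors' deposited table likewise gives none of the 7 an adjusted p under 0.05 (0.136% of its genes have one). The genotypes overlapped for 7 of 7 genes, where 3.04% of all genes tested did not overlap. The log2 difference, knockout minus wild type, was positive for 5 members and negative for 2, where 52.5% of all genes tested had a positive one, with a median of 0.06 for the members and 0.02 for all genes tested. The median absolute log2 difference was 0.13 for the members and 0.21 for all genes. The genes behind these 2 medians were not matched for level, so the medians do not show whether the members varied less than genes of like level.

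**Figure D2:**
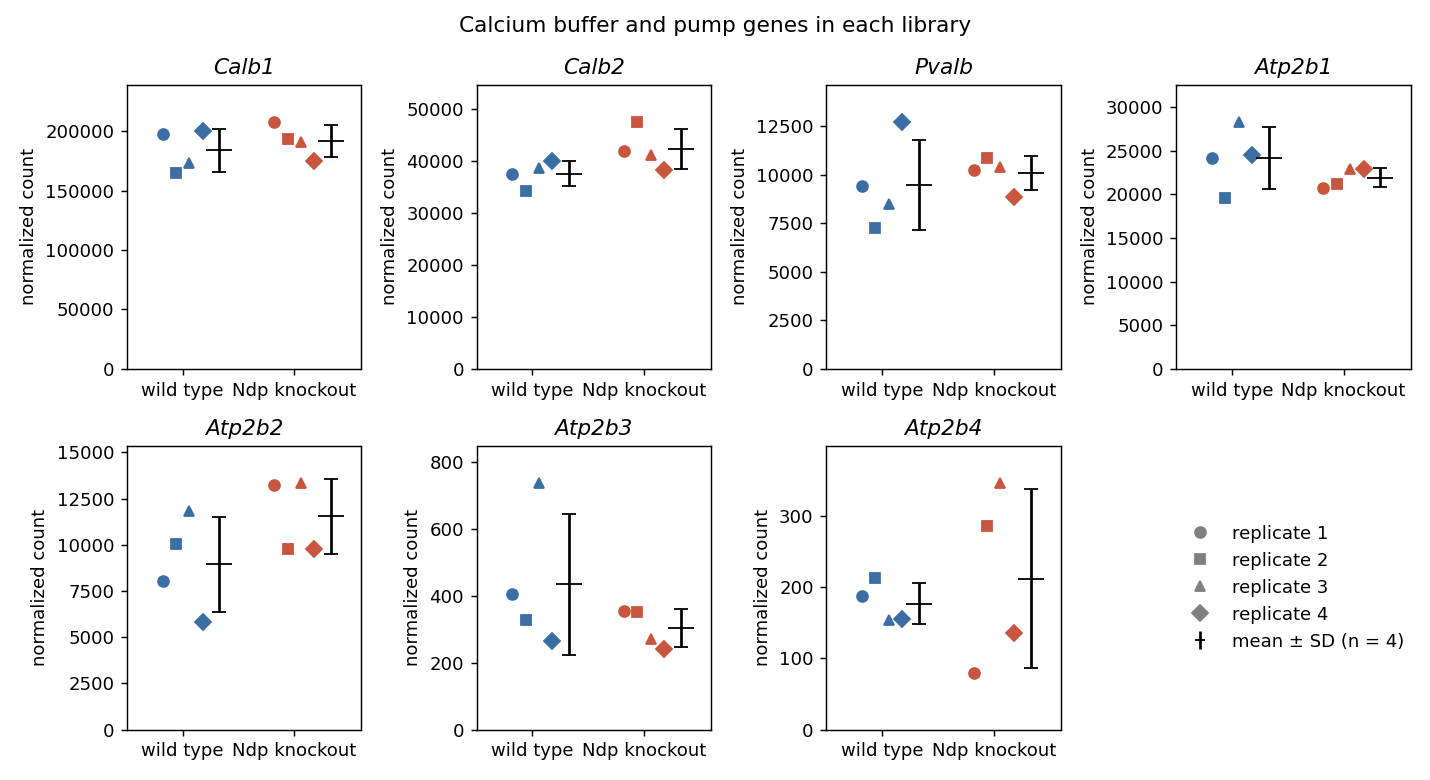
Normalized counts (vertical axes from 0) of each gene in 4 wild-type and 4 Ndp knockout libraries, with marker shape giving the replicate and black bars the mean ± SD. The genotypes overlap in every panel; Atp2b3 has its highest value in wild-type replicate 3 (738) and Atp2b4 spreads from 79.1 to 346 in the knockout.

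Calb1, on chromosome 4 (15881264 to 15908064, plus strand, mm10; ENSMUSG00000028222), encodes calbindin, a fast cytosolic buffer. It alone took 0.408% to 0.525% of all recovered reads of a library. Over replicates 1 to 4, wild type held 197188, 164541, 172782 and 200234 normalized counts, and knockout replicates 1 to 4 held 207660, 193401, 191209 and 174478. The highest library was a knockout and the lowest a wild type, and the ranges overlapped over most of their width. The log2 difference was 0.06 ± 0.13 (SE), with a 95% interval of -0.22 to 0.35, or 0.860 to 1.27 on the fold scale (limma adjusted p = 0.988). An exact two-sided permutation test over the 70 assignments of libraries gave p = 0.486, where 0.0286 is the smallest p that it allows.

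Calb2, on chromosome 8 (110137502 to 110168210, minus strand, mm10; ENSMUSG00000003657), encodes calretinin, a close relative of calbindin. Normalized counts of Calb2 in wild-type replicates 1 to 4 were 37426, 34255, 38636 and 39904, and in knockout replicates 1 to 4 they were 41998, 47489.7, 41234 and 38323. In 3 of 4 knockout libraries Calb2 lay above every wild-type library, while knockout replicate 4 lay within the wild-type range. Its log2 difference of 0.17 ± 0.12 (SE) had a 95% interval of -0.09 to 0.43, or 0.938 to 1.35 on the fold scale (limma adjusted p = 0.939), and the exact permutation p was 0.0857. The residual spread of its log2 values within genotypes was 0.11 (SD), and 3.05% of the 12931 genes with a mean of at least 100 normalized counts had a smaller one. For Calb1 that SD was 0.12 (4.29% of genes smaller), against a median of 0.32 over those genes. The limma intervals of these 2 genes were the narrowest among the members. They do not follow from this SD alone, since limma draws the variance of each gene toward that of genes of like level.

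Pvalb, on chromosome 15 (78191114 to 78206400, minus strand, mm10; ENSMUSG00000005716), encodes parvalbumin, a slower buffer known from fast-firing neurons and muscle. Wild-type replicates 1 to 4 held 9433, 7258, 8485 and 12716 normalized counts, and knockout replicates 1 to 4 held 10242, 10858, 10386 and 8846. The knockout libraries lay close together, each inside the wild-type range. The log2 difference was 0.12 ± 0.17 (SE) with a 95% interval of -0.26 to 0.49, or 0.835 to 1.41 on the fold scale (limma adjusted p = 0.980), and the exact permutation p was 0.600.

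The makeup of the buffers varied little between libraries. Per kilobase, Calb1 made up 55.3% ± 1.53 of the sum of the 3 genes in wild-type libraries and 53.8% ± 1.80 in knockout libraries, and Calb2 made up 31.5% ± 1.78 and 33.0% ± 1.58 (SD, n = 4). Pvalb made up 13.1% ± 1.96 and 13.2% ± 0.441 (SD, n = 4), with its highest share of 16.0% in wild-type replicate 4. Spiral ganglion neurons, which contact hair cells, use these buffers too, and the summed level of 8 neuron markers ran from 23616 to 29567 normalized counts over wild-type and from 24351 to 29740 over knockout libraries. Nefl made up most of that sum, at 15420.3 ± 2213 and 15558 ± 2065 (SD, n = 4), so the sum does not show less abundant markers. Neurod1 stood at 3082 normalized counts in knockout replicate 1 and at 0 to 493 in the other libraries. Tubb3 stood at 1867 in knockout replicate 1 and at 289 to 1073 in the other libraries. Of the 7 neuron markers tested, 3 lay higher and 4 lower in mean log2 level in the knockout. An unadjusted p under 0.05 in limma was found for 2 of the 7, against 5.57% of all genes tested. These were Nefm (-0.39 ± 0.15, SE) and Snap25 (0.39 ± 0.18, SE), each with a limma adjusted p of 0.895. Prph was below the minimum for the test, at 5.28 ± 10.6 and 2.45 ± 4.90 normalized counts (SD, n = 4). The part of neuronal RNA in the levels of the buffers was not tested.

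Among the pumps, Atp2b1 and Atp2b2 carried nearly all the RNA. Atp2b1, on chromosome 10 (98914406 to 99026143, plus strand, mm10; ENSMUSG00000019943), encodes a pump that most cells use. Its level in wild-type replicates 1 to 4 was 24130, 19586, 28296 and 24556 normalized counts, and in knockout replicates 1 to 4 it was 20768, 21203, 22855 and 22897. The lowest and the highest value were both wild type, with all knockout libraries between them. The log2 difference was -0.13 ± 0.13 (SE) with a 95% interval of -0.42 to 0.17, or 0.747 to 1.12 on the fold scale (limma adjusted p = 0.961; exact permutation p = 0.371).

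Atp2b2, on chromosome 6 (113743831 to 114042613, minus strand, mm10; ENSMUSG00000030302), has several start sites, and its gene total sums the transcripts of all of them. GENCODE M21 lists 8 transcripts, 4 of them protein-coding, so the values cannot show which start or which splice form of the hair bundle pump was used. The genes Gm15082, Gm15083 and Gm44167 lie within its span, and their exons share 0 bases with its own. Its 3 starts in RefSeq (GRCm38.p6) are shown to let a reader see how unlike they are. Each line gives 100 bases before the start in lower case and the first 30 transcribed bases in capitals, read 5′ to 3′ on the minus strand. The start farthest upstream is called start 1 (chr6:114042051-114042180), followed by start 2 (chr6:113934652-113934781) and start 3 (chr6:113891510-113891639).
Atp2b2 start 1: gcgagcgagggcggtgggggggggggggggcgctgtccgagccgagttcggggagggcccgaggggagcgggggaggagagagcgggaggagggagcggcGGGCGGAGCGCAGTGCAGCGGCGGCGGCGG
Atp2b2 start 2: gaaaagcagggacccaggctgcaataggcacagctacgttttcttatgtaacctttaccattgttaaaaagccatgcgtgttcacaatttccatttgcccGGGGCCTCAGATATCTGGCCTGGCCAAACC
Atp2b2 start 3: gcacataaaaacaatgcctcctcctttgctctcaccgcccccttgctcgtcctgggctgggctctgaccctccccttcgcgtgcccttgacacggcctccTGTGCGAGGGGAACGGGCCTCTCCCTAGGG
G and C made up 82.3% of the bases printed for start 1, 48.5% for start 2 and 64.6% for start 3. The GENCODE transcript Atp2b2-202 begins at start 2 and Atp2b2-201 and Atp2b2-208 at start 3, and none begins at exactly start 1. The RefSeq promoter table held 8 windows of 4 members (Pvalb, Atp2b1, Atp2b2 and Atp2b4), each 250 bases before to 50 after a start. In 0 of the 8 were the letters ATCAAAG found, a motif of the TCF/LEF factors that act with beta-catenin, or CAGCTG or CAGATG, E-boxes of the kind bound by factors such as Atoh1, on either strand. Of 32851 windows of that length 3.73% held ATCAAAG, 16.3% CAGCTG and 17.2% CAGATG, and 33.2% held any of these motifs. No match says only that these letters are not in these windows.

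Wild-type replicates 1 to 4 held 8055, 10019, 11853 and 5820 normalized counts of Atp2b2, and knockout replicates 1 to 4 held 13256, 9760.01, 13362 and 9793. Knockout replicates 1 and 3 lay above every wild-type library (no gene of the 7 had all 4 above, against 1.46% of all genes tested), replicates 2 and 4 lay within the wild-type range, and wild-type replicate 4 was the lowest. The log2 difference of 0.40 ± 0.22 (SE) was the largest positive one among the 7 genes, with a 95% interval of -0.08 to 0.88, or 0.946 to 1.84 on the fold scale (limma adjusted p = 0.917; exact permutation p = 0.171). It was 0.21 without wild-type replicate 4 and 0.55 without wild-type replicate 3 (limma unadjusted p = 0.0240, adjusted 0.724).

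The libraries also differed in the balance of long and short transcripts, and the members are set beside it here as a description. For each library a long-minus-short score was taken, after the spread of Atp2b2 and Pvalb had been seen, so its relation to them is no independent test. It is the median deviation from a gene's mean over the 8 libraries, in log2 units, of 2423 genes with a longest coding transcript of at least 5224 bases, minus that of 2422 genes with at most 1837 bases. The score was -0.27, 0.29, 0.46 and -0.57 in wild-type replicates 1 to 4 and 0.14, -0.13, 0.11 and 0.03 in knockout replicates 1 to 4, so it varied mostly among the wild-type libraries. Over 8 libraries Atp2b2 had Pearson's r = 0.830 and Spearman's rho = 0.786 with the score, with permutation p adjusted over the 7 members of 0.0845 and 0.195. For Pvalb r was -0.754 and rho -0.714, with adjusted permutation p of 0.111 and 0.202. None of the 7 members had an adjusted p under 0.05. Without wild-type replicates 3 and 4, the libraries with the scores farthest from the median, r was 0.628 for Atp2b2 and -0.493 for Pvalb.

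The other members did not follow transcript length in a common way. Over 8 libraries r was -0.619 for Calb1, -0.25 for Calb2, -0.03 for Atp2b1, 0.501 for Atp2b3 and -0.05 for Atp2b4. Without wild-type replicates 3 and 4 it was -0.484 for Calb1, -0.35 for Calb2 and -0.14 for Atp2b4. For Atp2b1, whose longest transcript has 7130 bases, it was then -0.72, and for Atp2b3, with 4637 bases, it turned to -0.43, so the value of Atp2b3 over 8 libraries rested on those libraries.

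**Figure D3:**
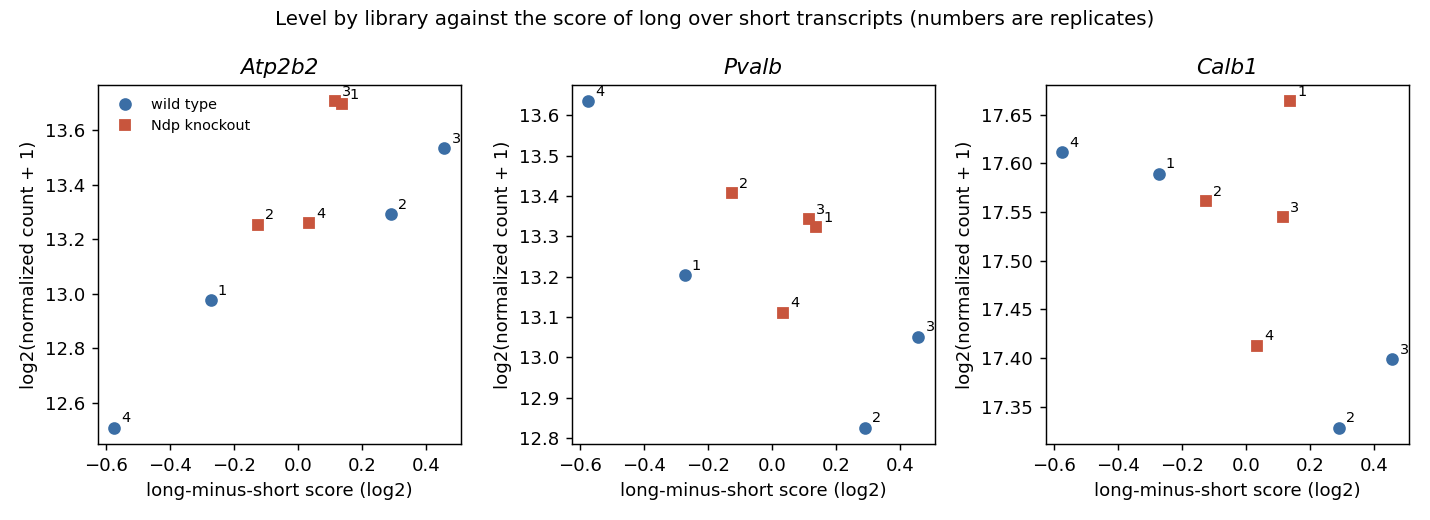
Level of Atp2b2, Pvalb and Calb1 (vertical axes, log2 of normalized count + 1, each with its own range) against the long-minus-short score of the library (horizontal axes, log2 units), with replicate numbers beside the points. Wild-type replicates 4 and 3 hold the ends of the score at -0.57 and 0.46; Atp2b2 is lowest and Pvalb highest at the low end.

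With the score as a covariate in limma, the log2 difference of Atp2b2 was 0.34 ± 0.11 (SE), with a 95% interval of 0.09 to 0.58, an unadjusted p of 0.0121 and an adjusted p of 0.548. Because the score was taken after the spread of Atp2b2 had been seen, this interval and p are no independent test of Atp2b2. Atp2b2 was the 1 member with an unadjusted p under 0.05 in that fit, where 1403 of 18203 genes had one and 1 gene passed. The other log2 differences in that fit were 0.08 for Calb1, 0.18 for Calb2, 0.16 for Pvalb, -0.13 for Atp2b1, -0.48 for Atp2b3 and 0.05 for Atp2b4. The signs thus stayed as they were without the score. Whether the score reflects RNA quality, amplification or the makeup of the cells was not tested.

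**Figure D4:**
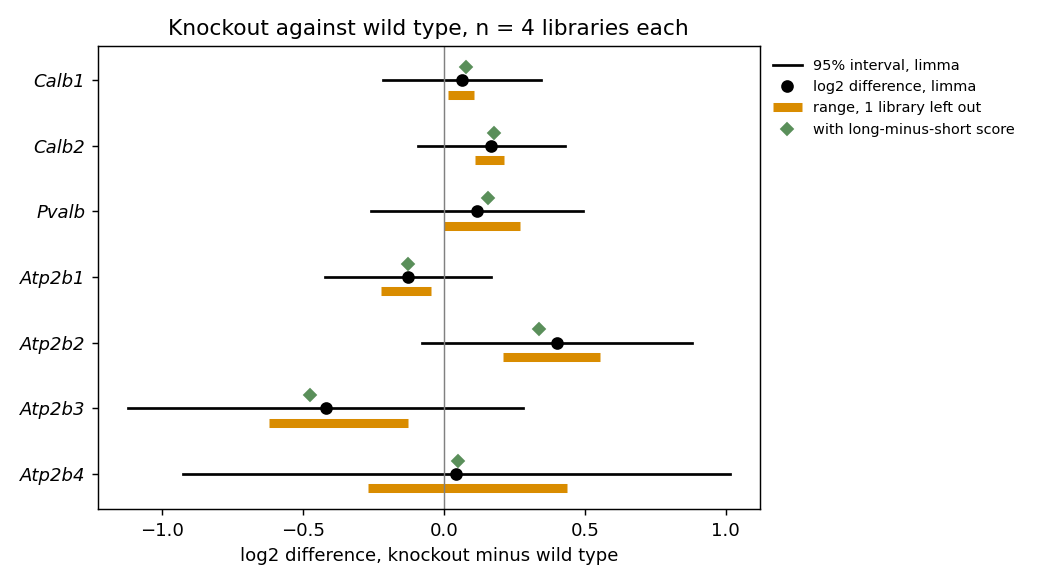
Log2 difference (horizontal axis, knockout minus wild type) of each gene in limma with its 95% interval in black, the range when 1 of the 8 libraries is left out in orange, and the value with the long-minus-short score as covariate as a green diamond. Every black interval crosses 0, and the interval is narrowest for Calb2 and widest for Atp2b4.

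Atp2b3, on chromosome X (73503086 to 73571005, plus strand, mm10; ENSMUSG00000031376), encodes a pump known mainly from brain. Wild-type replicates 1 to 4 held 405, 328, 738 and 264 normalized counts, and knockout replicates 1 to 4 held 354, 350.1, 271 and 239.8. Wild-type replicate 3 stood above the other libraries, and the lowest value was a knockout. The log2 difference was -0.42 ± 0.32 (SE) with a 95% interval of -1.12 to 0.28, or 0.459 to 1.22 on the fold scale (limma adjusted p = 0.940; exact permutation p = 0.286). Leaving out 1 library at a time gave -0.62 to -0.13, with the value nearest 0 reached without wild-type replicate 3.

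Atp2b4, on chromosome 1 (133699457 to 133801041, minus strand, mm10; ENSMUSG00000026463), encodes a pump of many tissues that is also known from red blood cells. Wild-type replicates 1 to 4 held 187, 213, 154 and 155 normalized counts, and knockout replicates 1 to 4 held 79.1, 286, 346 and 135. The knockout libraries lay on both sides of the wild-type range, 2 above and 2 below it. The log2 difference was 0.04 ± 0.44 (SE) with a 95% interval of -0.93 to 1.01, or 0.526 to 2.02 on the fold scale (limma adjusted p = 0.998; exact permutation p = 1.00). It rested on 75 to 384 reads per library, and a 2-fold higher level lay inside its interval. Without 1 library at a time its log2 difference ran from -0.27 to 0.44.

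As shares of the summed pump RNA per kilobase, Atp2b1 made up 66.4% ± 6.96 in wild-type and 59.3% ± 4.37 in knockout libraries, and Atp2b2 made up 29.3% ± 6.42 and 37.4% ± 4.38 (SD, n = 4). Atp2b3 made up 3.62% ± 1.12 and 2.60% ± 0.561, and Atp2b4 made up 0.618% ± 0.157 and 0.708% ± 0.406 (SD, n = 4). The ratio of Atp2b2 to Atp2b1 per kilobase, chosen after the values were seen, was 0.403, 0.617, 0.505 and 0.286 in wild-type replicates 1 to 4 and 0.770, 0.555, 0.705 and 0.516 in knockout replicates 1 to 4. The highest wild-type ratio, that of replicate 2, lay above the ratios of knockout replicates 2 and 4, so the genotypes overlapped. The summed pump level was 2399 ± 385 normalized counts per kilobase over wild-type libraries and 2437 ± 169.6 over knockout libraries (SD, n = 4).

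Only wild-type replicate 2 and knockout replicate 2 share a date in their titles. In that pair the log2 difference was 0.23 for Calb1, 0.47 for Calb2, 0.58 for Pvalb, 0.11 for Atp2b1, -0.04 for Atp2b2, 0.10 for Atp2b3 and 0.43 for Atp2b4. In the other 6 libraries it was 0.01 for Calb1, 0.07 for Calb2, -0.04 for Pvalb, -0.21 for Atp2b1, 0.55 for Atp2b2, -0.59 for Atp2b3 and -0.08 for Atp2b4. The sign therefore differed between the pair and the other libraries for Pvalb, Atp2b1, Atp2b2, Atp2b3 and Atp2b4, and the differences of Calb1 and Calb2 were smaller outside the pair. The pair has no replicate and gives no test, and each of the other 6 libraries has a date of its own, so among them date and genotype cannot be told apart.

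The genes whose pattern over the 8 libraries was most like a member's were sought among 12930 others with a mean of at least 100 normalized counts, by Pearson's r of log2 values, as a description. Atp2b2 was most like Gtf3c1 and Slc18a2, at r = 0.989 and 0.985, and 223 genes lay above 0.9. Pvalb was most like Llph and Rex1bd, at 0.985 and 0.980, with 188 genes above 0.9. For Calb1 14 genes lay above 0.9 (Fam122a and Nucks1 first, at 0.941 and 0.936) and for Calb2 4 (Clta and Slc35c2 first, at 0.951 and 0.929). For Atp2b1 the nearest were Plekhg1 and Hivep1 (0.947 and 0.938), for Atp2b3 Armc9 and Ncam1 (0.983 and 0.947), and for Atp2b4 Pcgf5 and Plcxd3 (0.994 and 0.971). Above 0.9 lay 12 genes for Atp2b1, 16 for Atp2b3 and 14 for Atp2b4. How many of the 12930 genes would pass 0.9 over 8 libraries by chance was not tested. Among the members the highest r was 0.833, between Calb1 and Pvalb, and that between Atp2b1 and Atp2b2 was -0.18. These values share libraries and depth.

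Other genes that handle calcium were compared through 7 lists. Of their 61 genes 57 were tested, and limma called 0. At an unadjusted p under 0.05 it listed 5 of 57 (8.77%, against 5.57% of all genes), and edgeR listed 3 and called 0. The log2 difference was positive for 37 and negative for 20, with a median of 0.09, where 52.5% of all genes tested had a positive one. The genotypes overlapped for all 57, where 3.04% of all genes tested did not overlap.

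The buffers' relatives and the pumps' partners lay as follows. Of 18 other EF-hand genes, 9 had a positive and 9 a negative difference. Ocm, the gene of oncomodulin, a parvalbumin of outer hair cells, had 21608, 11674, 7146 and 26417 normalized counts in wild-type replicates 1 to 4 and 32067, 19235, 37468 and 22006 in knockout replicates 1 to 4. Its log2 difference was 0.85 ± 0.38 (SE; limma adjusted p = 0.895). The summed level of 4 outer hair cell markers, Ocm among them, was 18635 to 40672 and 31054 to 70655. Vsnl1, a neuronal calcium sensor gene, had 19.2 ± 18.6 and 38.4 ± 15.9 normalized counts (SD, n = 4). The pumps are held at the membrane by neuroplastin and basigin. Nptn, the gene of neuroplastin, had 6314 ± 645 and 6314 ± 473 normalized counts and Bsg, that of basigin, 36486 ± 4990.1 and 37347 ± 1132 (SD, n = 4), with log2 differences of 0.00 ± 0.13 and 0.04 ± 0.13 (SE).

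Intracellular pumps and stores were next. Atp2a3 encodes a calcium pump of the endoplasmic reticulum. It had 9545, 24123, 7709 and 8028 normalized counts in wild-type replicates 1 to 4 and 25479, 15344, 22102 and 13395 in knockout replicates 1 to 4. Wild-type replicate 2 stood alone among its group. Atp2c2, a Golgi pump gene, had 406 ± 149 and 625 ± 165 (SD, n = 4), and 4 of the 5 genes of this list had a positive difference. Of 10 tested genes of store release and refill, 7 were positive and 3 negative. Itpr2 and Itpr3, genes of the receptors that release calcium from the endoplasmic reticulum, had log2 differences of -0.56 ± 0.17 and -0.69 ± 0.24 (SE), each with a limma adjusted p of 0.895. Itpr2 had 3125 ± 568 and 2111 ± 299 normalized counts and Itpr3 4285 ± 1201 and 2682 ± 779 (SD, n = 4).

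Exchangers, mitochondrial uptake and entry complete the account. Slc24a2, a sodium-calcium exchanger gene, lay near the limit of detection in 3 wild-type libraries, with 0, 40.2, 0.780 and 0 normalized counts in replicates 1 to 4, against 74.9, 29.4, 28.9 and 51.7 in the knockout. A floor of 3 reads was worth 2.34 to 3.49 normalized counts. Slc8a2, another exchanger gene, had 344 ± 97.9 and 251 ± 43.7 (SD, n = 4). Of 7 genes of mitochondrial uptake 4 were positive and 3 negative, and Mcu, the gene of the uniporter pore, had 727 ± 98.7 and 590 ± 154 while its regulator gene Micu2 had 2550.5 ± 291 and 2844 ± 206 (SD, n = 4). Of 8 genes of calcium entry 7 were positive. Tmc1 encodes a part of the mechanotransduction channel and stood at 6702 ± 956 and 9391 ± 2209 normalized counts, a log2 difference of 0.47 ± 0.19 (SE; limma adjusted p = 0.895), and Cacnb2, a gene of a calcium channel subunit, had 2894 ± 748 and 3656 ± 238 (SD, n = 4).

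**Figure D5:**
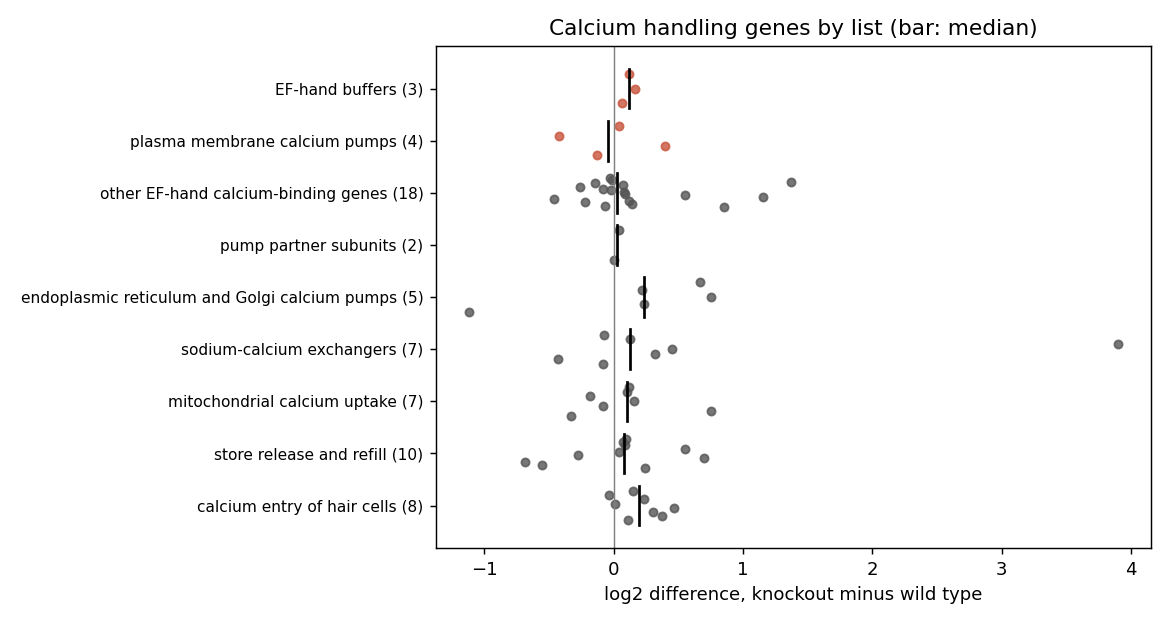
Log2 difference (horizontal axis, knockout minus wild type) of each tested gene, by list (vertical axis, number of genes tested in brackets), with the members in red, other genes in grey and the median of each list as a bar. Points lie on both sides of 0 in most lists, and the point at the far right, at 3.90, is Slc24a2, which was near the limit of detection in 3 wild-type libraries.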

How the data were processed

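The authors deposited 1 table of normalized gene counts, a signal in which each library's counts are scaled by a single size factor. Tools named in the submitters' processing notes are bcl2fastq 2.20, Salmon 0.14.2 and DESeq2 1.26.0, with mm10 as build; the role of each is not stated there. Per the labels' protocols, cDNA came from SMART-Seq v4 and libraries from Nextera XT, which keep no strand information. The deposited log2 fold changes and p-values come from a DESeq2 comparison, per the file headers. Dividing each column by its smallest step gave whole numbers (within 1e-06) for 100% of 202744 values, called reads here, which may be rounded estimates. Groups came from the genotype labels, and replicate numbers follow accession order.

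Genes with at least 10 normalized counts in at least 4 libraries were tested with limma 3.58.1 (R 4.3.3, intensity trend, two-sided, Benjamini-Hochberg, threshold 0.05) on log2(normalized count + 1), a scale that understates changes of low genes. edgeR 4.0.16 and DESeq2 1.42.0 on the reads were alternatives. Intervals and floors cover the spread of these libraries or counting error only. Lengths and exons came from GENCODE M21, whose coordinates were identical for 24587 genes of the table and for 7 of 7 members. Named were the members, up to 2 genes per list with the smallest p and the 2 genes most like each member. The members and lists were chosen with earlier results of these data known. The ratio of pumps, the long-minus-short score and the length of the longest transcript were added after the data were seen.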

Additional observations from a re-analysis of the deposited data

Results flagged for a closer look

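In groups of 4 libraries, 42 sets of values (the members and the named genes of the calcium lists, by genotype) were checked for a library far from the others of its group, and chance alone marks about 1 in 20. None of the members was marked. Atp2a3 in wild type was marked, since the gap between replicate 2 (24123 normalized counts) and the next library made up 0.888 of the group's range. Slc24a2 in wild type was marked as well, with a share of 0.981 set by replicate 2 (40.2 normalized counts), while the other 3 libraries lay below the floor of 3 reads.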

How the results depend on the processing

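Over 19 alternative settings the 7 log2 differences kept their sign in 122 of 133 values, and 0 of 126 tests passed an adjusted p of 0.05 (lowest 0.562, with 1 at an unadjusted p under 0.05). The fit with the long-minus-short score as covariate, added later and not among these, gave a lowest adjusted p of 0.548, for Atp2b2, and turned no sign. Signs turned for Atp2b4 with library weights (-0.022) and without both libraries of the shared title date (-0.085), and for Pvalb without those libraries (-0.038). With 1 library left out at a time Atp2b4 ran from -0.27 (without knockout replicate 3) to 0.44 and was also below 0 without knockout replicate 2 and wild-type replicates 3 and 4. Pvalb ran from -0.000726 (without wild-type replicate 2) to 0.27. Within the shared title date alone the values were 0.23 for Calb1, 0.47 for Calb2, 0.58 for Pvalb, 0.11 for Atp2b1, -0.038 for Atp2b2 and 0.10 for Atp2b3, the sign turning for these last 3 pumps. The cause was not tested. The count of genes called among all tested was 1, and became 0 with a pseudocount of 0.1, with a minimum of 50, by edgeR and without the shared date, 34 by DESeq2, and 0 to 2 with 1 library left out. No paired analysis was possible because only 1 wild-type and 1 knockout library share a title date. Replicate numbers come from accession order and pair nothing. Counting error at the lowest depth of Atp2b4 and Atp2b3 (75 and 218 reads) comes to 0.17 and 0.098 on the log2 scale, below their spread within genotypes of 0.71 and 0.49 (SD).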
